A study of Mus musculus with 6 samples.

Results

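The genes described here are the tripartite motif (TRIM) genes, taken as the rows whose symbol is Trim followed by a number and at most 1 letter, with 1 such row left out. They are 62 of the 23494 rows, and 35 of them averaged 1 TPM or more over the 6 libraries, TPM being a transcript's share of its library corrected for its length. The family was chosen by the difference of Trim47, which lay higher with rMANF, so that difference is described without a test and Trim47 is left out of the counts of members. The libraries labelled rMANF came from wild-type female C57BL/6 mice that received recombinant mesencephalic astrocyte-derived neurotrophic factor by daily intraperitoneal injection at 2 µg/kg. The libraries labelled vehicle came from mice of the same strain, sex and genotype that received phosphate-buffered saline, although the column names of these samples begin with IgG. All mice carried a subcutaneous B16F10 melanoma, a transplantable mouse tumour line, and treatment began when tumours averaged about 60 mm3. Of the 8 mice randomised to each group 3 libraries per group were analysed. They are called biological replicates, with no label tying a library to a mouse, so p-values measure only the spread between these libraries. No label gives an age.

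TRIM proteins share a RING finger, 1 or more B-box zinc fingers and a coiled coil, and most act as ubiquitin ligases. The carboxy-terminal part differs between members and sets what the protein binds: a PRY-SPRY domain in the largest class, a PHD finger with a bromodomain in the nuclear corepressors, NHL repeats in members that bind RNA or cytoskeletal proteins. Many PRY-SPRY members are induced by interferons and take part in antiviral defence, and the MuRF members, Trim54, Trim55 and Trim63, act on the sarcomere of striated muscle. TRIM47 was first described in human astrocytoma, where it is overexpressed, and in human genetics the locus it shares with TRIM65 is associated with white matter lesions of the brain.

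The libraries labelled heart held little cardiomyocyte RNA. Of 16 cardiomyocyte markers 13 had rows, and they summed to 8.59 to 12.6 TPM in the rMANF libraries and 8.33 to 72.9 TPM in the vehicle libraries. Nppa, Actc1 and Pln stayed under 1 TPM in every library. Myl2 and Myl3 were listed at 0 in all 3 rMANF libraries, and also in vehicle replicate 3. Myl7 went the other way, being detected only in rMANF replicates 1 and 2 (0.27 and 1.36 TPM). Other markers were present: Tnnt2 measured 4.86 to 11.5 TPM over the libraries and made up most of each rMANF sum. Tnni3 and Mb lay above 0 in every library. The sum of 20 skeletal muscle markers was 148 to 168 TPM with rMANF and 201 to 1569.8 TPM with vehicle, the highest in vehicle replicate 2. That library also held the cardiomyocyte sum of 72.9 TPM. There Mb, Myl2 and Tnnc1 measured 23.5, 14.9 and 13.0 TPM, and Nppa, Myl7 and Tnni3 0, 0 and 2.07 TPM. The part of skeletal muscle RNA in the cardiomyocyte sum was not tested. In such bulk samples fewer cells of a type and less RNA per cell cannot be told apart. The files keep no read counts, so the depth is unknown, and the number of genes detected above 0 TPM ran between 18830 and 19298 per library.

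Trim47, by whose difference the family was chosen, lay higher in each rMANF library than in any vehicle library. The gene encodes a PRY-SPRY ubiquitin ligase and lies on the minus strand of chromosome 11, 116105752 to 116127210 (GENCODE M21, GRCm38, the assembly named mm10). It measured 92.7, 90.8 and 88.8 TPM in the rMANF libraries, against 55.4, 56.5 and 64.4 TPM in the vehicle libraries. The groups did not overlap, with a gap of 24 TPM between them, and vehicle replicate 3 was the nearest to the rMANF libraries. The means were 90.7 ± 1.95 TPM with rMANF and 58.8 ± 4.90 TPM with vehicle (SD, n = 3 each), a difference of 0.62 ± 0.09 (SE) on the log2(TPM + 1) scale, which corresponds to 1.54-fold. This value chose the family and is given as a description. Over the 19 alternative settings it ran from 0.31 to 0.69, and the groups did not overlap in any of the 19. Endothelial markers lay in the same direction: 11 of 12 were higher, 4 without overlap (57.3% and 18.9% of all tested genes), and they summed to 202 to 231 TPM with rMANF and 156 to 192 TPM with vehicle, with none at 0. Among them Cldn5, of endothelial tight junctions, measured 22.8, 28.2 and 24.1 TPM with rMANF, against 9.63, 6.71 and 16.0 TPM with vehicle. The part of endothelial cells in the Trim47 values was not tested.

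**Figure D1:**
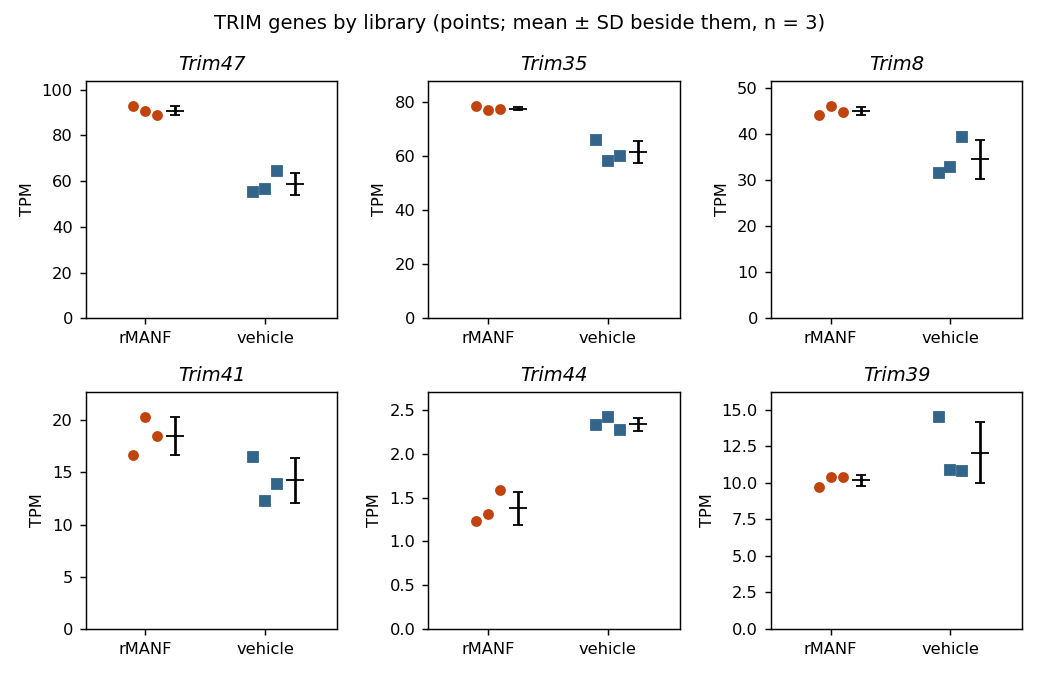
Expression in TPM (linear axis from 0) of 6 TRIM genes in each library, rMANF as circles and vehicle as squares, with the mean and SD (n = 3) beside the points. Trim47, Trim35, Trim8 and Trim41 lie higher in the rMANF libraries, and Trim44 and Trim39 lie lower, with 24 TPM between the groups for Trim47 and 0.23 TPM for Trim41.

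The 250 bases before the RefSeq start of Trim47 are shown because this gene led to the choice of the family; a relation of its promoter to the difference was not tested. RefSeq places the start at 116110235, whereas the GENCODE gene reaches further through a non-coding transcript. The bases are credited to RefSeq (GRCm38.p6, minus strand, chr11:116110236-116110485) and written 5′ to 3′ with matches to the GC box GGGCGG on either strand in capitals.
Trim47: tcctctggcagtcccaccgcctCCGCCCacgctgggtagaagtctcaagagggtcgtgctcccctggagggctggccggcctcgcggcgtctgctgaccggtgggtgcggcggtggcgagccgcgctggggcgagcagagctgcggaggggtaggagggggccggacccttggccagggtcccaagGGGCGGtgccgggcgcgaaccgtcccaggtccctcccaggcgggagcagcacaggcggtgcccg
The 300-base window from 250 before to 50 after this start is 74.3% G and C and holds 29 CpG dinucleotides, more than 87.1% of the 32851 promoter windows in the table, whose median is 7. It holds 2 GC boxes, a motif found in 35.7% of all windows and in 25 of the 60 windows of the 47 members with an entry.

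The transcripts of Trim47 were also rich in G and C, and the measured level of GC-rich genes differed between the libraries and between the groups. The mean transcript GC content of Trim47 was 64.0%, higher than that of 99.2% of tested genes. At a GC content of 65% the fitted trend of each library stood at 0.19, 0.18 and 0.14 log2 units above the gene means in rMANF replicates 1, 2 and 3. In vehicle replicates 1, 2 and 3 it stood at −0.30, −0.20 and −0.02. With each library's trend removed, Trim47 measured 6.37, 6.36 and 6.36 log2 units in the rMANF libraries, against 6.09, 6.03 and 6.05 in the vehicle libraries. The groups still did not overlap, and the difference was 0.31 ± 0.06 (SE), against 0.62 before removal. Because the trend differed between the groups, a technical effect of GC content and a difference of GC-rich genes with treatment cannot be told apart. The endothelial markers of smallest p, Cldn5, Tie1 and Cdh5, had GC contents of 60.5%, 57.9% and 54.1%. Their differences were 1.21, 0.67 and 0.61 before removal and 1.00, 0.52 and 0.55 after it.

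**Figure D2:**
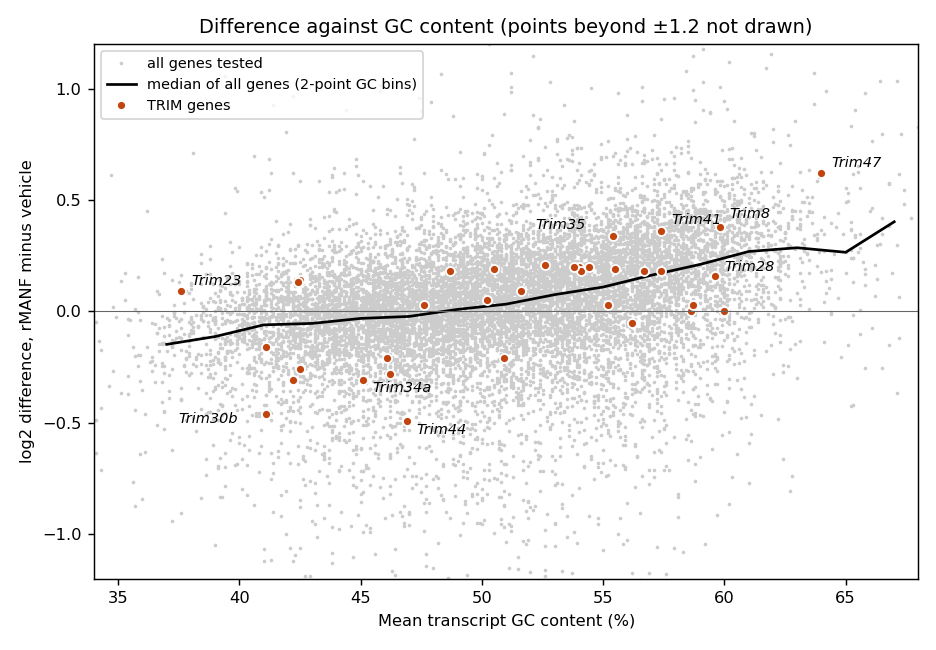
Each point is a tested gene, placed by its mean transcript GC content (percent) and its log2 difference, rMANF minus vehicle; TRIM genes are red and the black line is the median of all genes in bins of GC content. The median climbs with GC content, TRIM genes spread on both sides of it, and Trim47 lies at 64.0% GC with a difference of 0.62.

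The genes around Trim47 lay higher with rMANF by smaller amounts in the deposited TPM. Trim65, the adjacent member, encodes a ligase of the RNA sensor MDA5 and measured 11.6, 11.6 and 12.2 TPM with rMANF, against 11.7, 9.25 and 9.67 TPM with vehicle. Its groups overlapped through vehicle replicate 1, and the difference was 0.20 ± 0.11 (limma, Benjamini-Hochberg adjusted p = 0.366). Exons annotated to Trim47 and Trim65 overlap on the same strand, but 0% of the 31-base words of the protein-coding transcripts of Trim47 recur in another gene. Of those of Trim65, 6.57% recur in other genes, and 3.47% of all its words recur in transcripts of Trim47. Among the neighbouring rows Unk, which encodes an RNA-binding protein, and Mrpl38, a mitochondrial ribosomal protein gene, had groups that did not overlap. Unk measured 10.8 ± 0.446 and 7.82 ± 0.810 TPM in rMANF and vehicle libraries (SD, n = 3 each; difference 0.43 ± 0.11) and Mrpl38 84.7 ± 3.53 and 69.3 ± 5.93 TPM (0.29 ± 0.09). The neighbours H3f3b, Unc13d, Wbp2 and Fbf1 differed by 0.14, 0.12, 0.09 and 0.37, with overlapping groups. With the GC trend removed the differences of Unk, Fbf1, H3f3b and Trim65 were 0.31, 0.27, 0.24 and 0.14, against 0.31 for Trim47. Those of Mrpl38, Wbp2 and Unc13d were 0.09, −0.04 and −0.08.

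**Figure D3:**
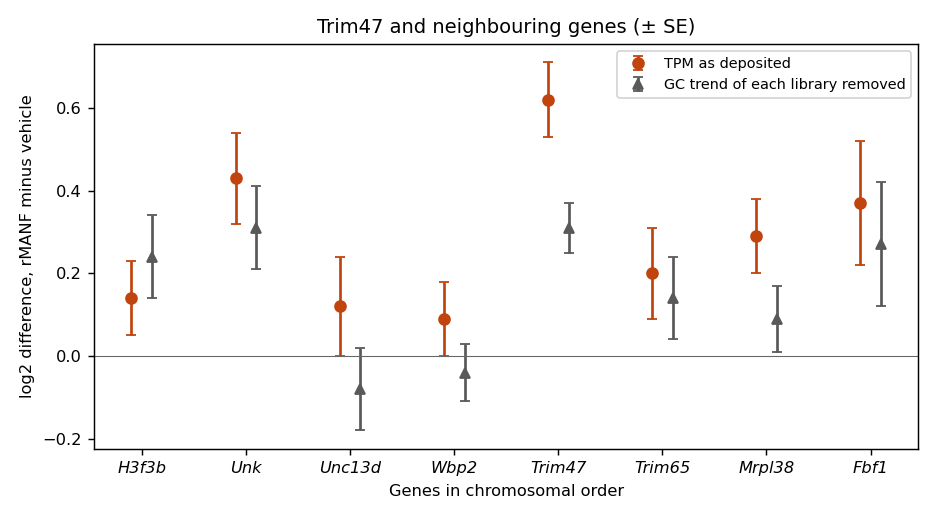
Log2 difference (rMANF minus vehicle, with SE) of Trim47 and neighbouring genes in chromosomal order, from the deposited TPM (circles) and with the GC trend of each library removed (triangles). Trim47 stands highest of the genes shown before the trend is removed, at 0.62, and level with Unk after it, at 0.31.

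The family spanned a wide range of levels. Trim28 was highest at 116 ± 10.4 TPM over the 6 libraries (SD), followed by Trim47 (74.8 ± 17.8), Trim35 (69.4 ± 9.27), Trim8 (39.7 ± 6.35), Trim27 (33.4 ± 3.66) and Trim25 (31.4 ± 2.81). Trim28, Trim47 and Trim35 together held 39.7% of the summed TPM of the 62 members. Trim28 lay above Trim47 in all 6 libraries without overlap of their ranges. Trim47 lay above Trim35 in 3 of 3 rMANF libraries and in 1 of 3 vehicle libraries, so the order of these neighbours differed between libraries. Trim35 lay above Trim8, and Trim25 above Trim11, without overlap, whereas Trim8, Trim27 and Trim25 overlapped from each to the next. From Trim11 (19.7 ± 1.27 TPM), a PRY-SPRY ligase gene, through Trim33, Trim26, Trim3 (16.7 ± 2.22) and Trim41 the ranges of neighbours in the order overlapped each time. Of the 62 members 22 averaged at least 10 TPM and 14 averaged under 0.1 TPM.

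**Figure D4:**
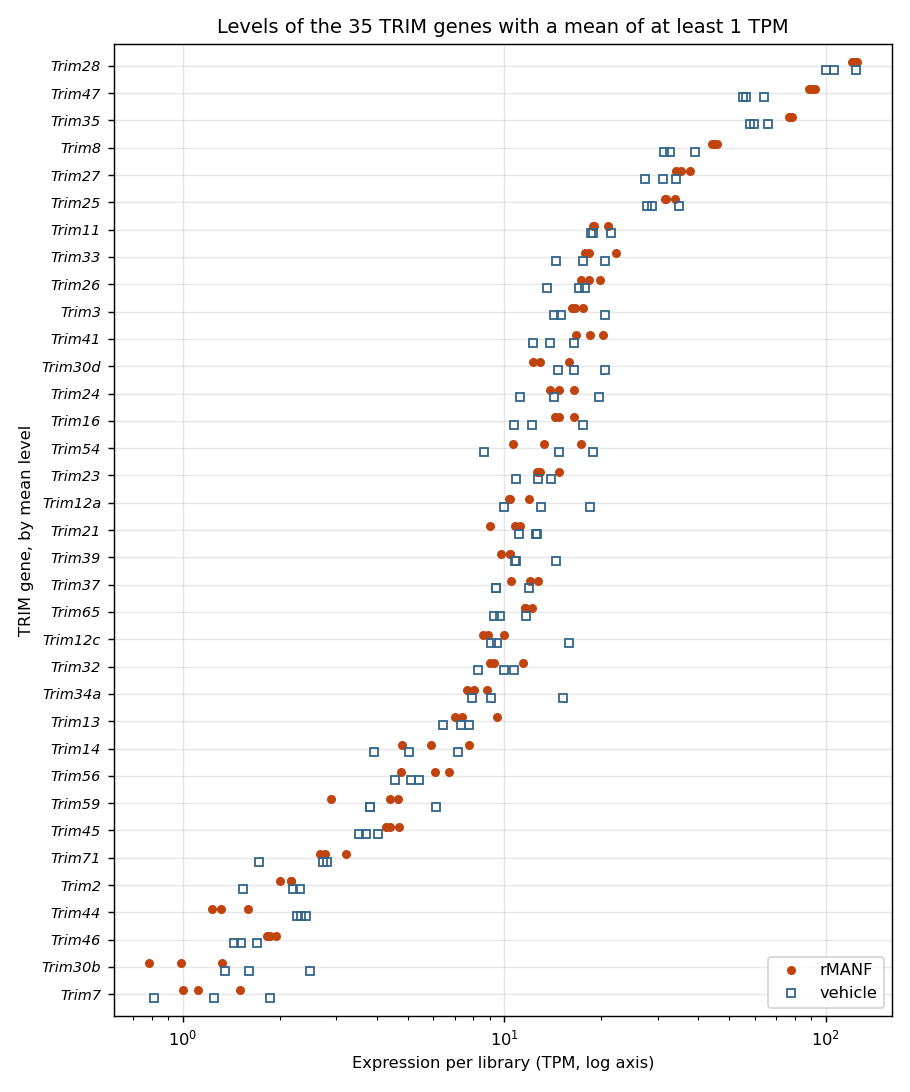
Expression per library (TPM, log axis) of the 35 TRIM genes averaging 1 TPM or more, sorted by mean, with rMANF as filled circles and vehicle as open squares. Trim28 leads at 99.9 to 125 TPM, and the 2 groups lie visibly apart for Trim47, Trim35, Trim8 and Trim44.

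Apart from Trim47, the family did not stand out from the other genes of the libraries. None of the other 34 tested members passed limma's test (0 at a Benjamini-Hochberg adjusted p of 0.05, as for 0.0% of all 12865 tested genes), and 0 reached an adjusted p of 0.10, against 2.73% of all tested genes. At an unadjusted p of 0.05, 3 members lay higher and 1 lower, where the shares over all tested genes were 13.9% and 6.63%. For 6 of the 34 the groups did not overlap and rMANF was the higher, against 18.9% of all tested genes, and for 3 it was the lower, against 9.02%. By the sign of the difference 22 of the 34 lay higher and 12 lower, where 57.3% of all tested genes lay higher and 42.7% lower. The median difference was 0.09 for the 34 members and 0.04 for all tested genes. Summed over the members without Trim47, expression was 587, 623 and 601 TPM in the rMANF libraries, against 626, 508 and 545 TPM in the vehicle libraries, so that the groups overlapped through vehicle replicate 1, the highest library. Without vehicle replicate 1 the number of members whose groups did not overlap and lay higher was 14 rather than 6, and over all tested genes 32.1%.

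Differences among the members ran along their GC content, as they did over all genes. Across genes, Spearman's rho between transcript GC content and the difference was 0.39 over 12828 tested genes and 0.48 over the 34 tested members without Trim47 (0.53 with it), as descriptions of points that share the same 6 libraries. Of the 12 other members with a GC content of at least 55%, 4 lay higher without overlap and 0 lower, where the shares over all tested genes of that GC content were 38.5% and 3.95%. Of the 13 members below 50%, 0 lay higher without overlap and 2 lower. The shares of all tested genes were 2.67% and 12.9% below 45% and 8.38% and 12.0% between 45% and 50%.

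Among the other members, Trim35 and Trim8 lay higher with the widest gaps in TPM. Trim35, a PRY-SPRY gene known in mouse from haematopoietic cells, measured 78.3, 77.0 and 77.3 TPM in the rMANF libraries, against 65.9, 58.1 and 59.9 TPM in the vehicle libraries. The rMANF values lay within 2 TPM of each other and 11 TPM or more above the vehicle values. The difference was 0.34 ± 0.08 (SE; limma, adjusted p = 0.107) and 0.25 with the GC trend removed. With library weights, which gave vehicle replicate 1 a weight of 0.277, limma called Trim35 at 0.36, together with 737 genes in all. Trim8, whose product has no known carboxy-terminal domain and in human cells promotes NF-κB signalling, measured 44.1, 45.9 and 44.8 TPM in the rMANF libraries, against 31.4, 32.7 and 39.2 TPM in the vehicle libraries. Its groups lay 4.9 TPM apart, with vehicle replicate 3 the nearest, and the difference was 0.38 ± 0.10 (adjusted p = 0.118), or 0.18 with the GC trend removed. Groups of both genes stayed apart in all 19 alternatives.

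The other 4 members that lay higher without overlap did so by narrow gaps. Trim41, which encodes a ligase known in human cells to act on protein kinase C, measured 16.7, 20.3 and 18.5 TPM with rMANF, against 16.5, 12.3 and 13.9 TPM with vehicle (difference 0.36 ± 0.13; limma, adjusted p = 0.180). The gap was 0.23 TPM, and the groups overlapped once the GC trend was removed or mitochondrial and haemoglobin genes were left out of the scaling. Exons of Trim41 overlap on the opposite strand with Rack1, a ribosomal protein gene at 1749.8 to 2442 TPM, and the library kit does not mark strand. The overlap is short, and 0.112% of the 31-base words of Trim41 transcripts recur in other genes. Trim27, first found as the RFP gene fused to RET, averaged 35.9 ± 1.88 TPM with rMANF and 30.9 ± 3.38 TPM with vehicle, with a gap of 0.071 TPM that closed under the same rescaling. Trim45, whose product carries a filamin-type domain, averaged 4.46 ± 0.211 and 3.75 ± 0.256 TPM in rMANF and vehicle libraries. Trim46, which organises microtubules of the axon, averaged 1.88 ± 0.0654 and 1.55 ± 0.135 TPM, and its groups overlapped with the GC trend removed, where the difference was 0.04. The differences of Trim27, Trim45 and Trim46 were 0.21, 0.20 and 0.18 (limma, adjusted p = 0.291, 0.405 and 0.593). Of the 31-base words of the transcripts of Trim46, 5.57% recur in Krtcap2, which overlaps it on the opposite strand and measured 176 to 219.6 TPM.

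Trim44 lay lower with rMANF without overlap. It encodes a protein without the RING finger that carries a zinc finger of the ubiquitin-protease type, and lies on chromosome 2, 102300119 to 102407828. It measured 1.23, 1.31 and 1.59 TPM in the rMANF libraries, against 2.33, 2.42 and 2.27 TPM in the vehicle libraries, with 0.68 TPM between the groups. The difference was −0.49 ± 0.17 (SE; limma, adjusted p = 0.163) and −0.44 with the GC trend removed. Because Trim44 is low, the pseudocount weighed on this value, which was −0.73 with 0.1 TPM added and −0.20 with 5 TPM added. Trim39, a PRY-SPRY ligase gene in the region of the major histocompatibility complex, measured 9.75, 10.4 and 10.4 TPM with rMANF, against 14.5, 10.9 and 10.8 TPM with vehicle. Its groups lay 0.35 TPM apart and vehicle replicate 1 carried most of the difference of −0.21 ± 0.13 (adjusted p = 0.403), which was −0.08 without that library.

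Most members of the chromosome 7 cluster, which holds interferon-inducible genes, were highest in vehicle replicate 1, with Trim5 and Trim34b as exceptions. The cluster (chromosome 7, 104218793 to 104507849) holds 9 members: Trim6, Trim34a, Trim5, Trim12a, Trim34b, Trim12c, Trim30b, Trim30c and Trim30d. Trim5, Trim12a and Trim12c are the mouse relatives of primate TRIM5, a restriction factor of retroviruses. Trim12a measured 10.3, 10.4 and 11.9 TPM in the rMANF libraries, against 18.4, 13.0 and 10.0 TPM in the vehicle libraries. Trim34a measured 8.04, 8.85 and 7.66 TPM, against 15.2, 9.06 and 7.94 TPM. In both genes vehicle replicate 1 stood apart and vehicle replicate 3 lay within or close to the rMANF range. At a GC content of 45%, near that of these genes, the fitted trend stood at 0.19 in vehicle replicate 1 and between −0.09 and 0.05 in the other libraries. With the trend removed the differences of Trim12a, Trim34a, Trim12c and Trim30d were −0.22, −0.24, −0.16 and −0.20, against −0.28, −0.31, −0.26 and −0.31 before. Vehicle replicate 1 then remained the highest for Trim12a, at 4.11 log2 units against 3.88 and 3.47 in the other vehicle libraries, and for Trim30d vehicle replicates 1 and 2 measured 4.18 and 4.2 log2 units. Trim12c, at 8.56 to 10.0 TPM with rMANF and 9.05 to 15.9 TPM with vehicle, and Trim30d, at 12.3 to 15.9 and 14.7 to 20.5 TPM, overlapped between groups likewise. Trim30b was the cluster member whose groups did not overlap, at 0.785, 1.32 and 0.984 TPM against 2.49, 1.61 and 1.35 TPM, with a gap of 0.029 TPM (difference −0.46 ± 0.23; limma, adjusted p = 0.295).

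The promoter windows of these members are compared because several of them share an element. The core of the interferon-stimulated response element, searched as 2 copies of GAAA with 2 bases of any kind between them on either strand, occurred in 8 of the 60 windows of the 47 members with an entry and in 3.44% of all windows. It was found in Trim5, Trim12a, Trim12c, Trim30d and Trim34a of the cluster, in Trim21 nearby, and in Trim2 and Trim26. The windows of Trim6, Trim34b, Trim30b and Trim30c, the other cluster members, hold no match. The matches on chromosome 7 are shown within 30 bases from RefSeq (GRCm38.p6), 5′ to 3′ on each gene's strand, with the core in capitals (overlapping matches in Trim21).
Trim12a, chr7:104315466-104315495, minus strand: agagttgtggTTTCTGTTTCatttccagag
Trim5, chr7:104288136-104288165, minus strand: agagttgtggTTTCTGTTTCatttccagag
Trim12c, chr7:104353359-104353388, minus strand: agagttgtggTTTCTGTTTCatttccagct
Trim34a, chr7:104244457-104244486, plus strand: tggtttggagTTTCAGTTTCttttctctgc
Trim30d, chr7:104507871-104507900, minus strand: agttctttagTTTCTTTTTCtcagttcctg
Trim21, chr7:102565447-102565476, minus strand: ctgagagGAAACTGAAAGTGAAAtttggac
The stretches of Trim12a and Trim5 are identical over 30 bases, and that of Trim12c differs from them at 2. Levels of these relatives are uncertain where reads could be split between copies: 53.3% of the 31-base words of Trim5 transcripts, 48.1% of Trim12c, 28.8% of Trim12a and 68.5% of Trim34a recur in other genes, against 11.9% for Trim30d.

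**Figure D5:**
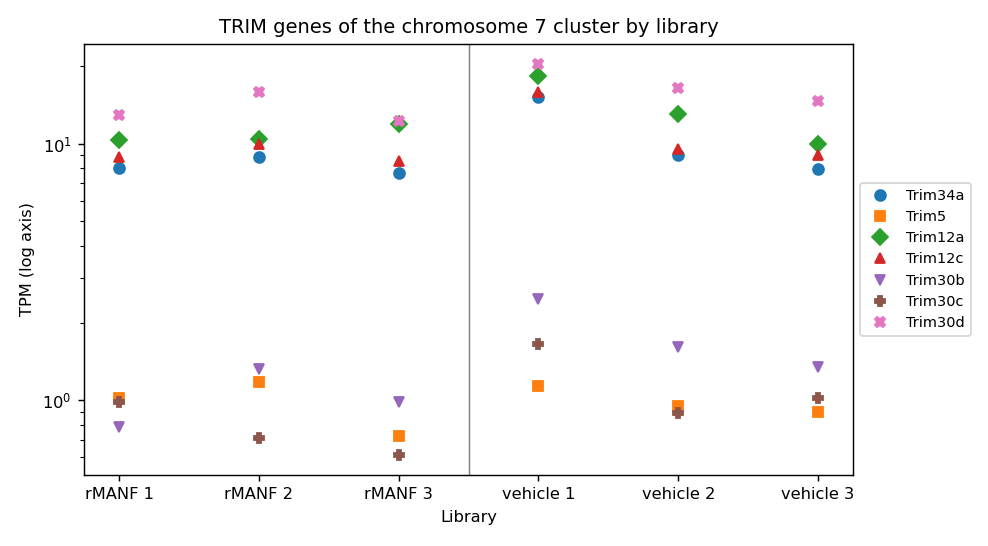
Expression (TPM, log axis) in each library of 7 TRIM genes of the chromosome 7 cluster, rMANF libraries left of the line and vehicle libraries right of it. Vehicle replicate 1 is the highest library for 6 of the 7 genes, the exception being Trim5, and the other vehicle libraries lie close to the rMANF libraries.

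Other interferon-inducible members did not follow 1 direction. Trim21, the cytosolic antibody receptor, averaged 10.3 ± 1.17 TPM with rMANF and 12.1 ± 0.809 TPM with vehicle (difference −0.21; limma, adjusted p = 0.353). Trim25, which ubiquitinates the RNA sensor RIG-I, averaged 32.4 ± 1.29 and 30.5 ± 3.90 TPM in rMANF and vehicle libraries (0.09; adjusted p = 0.669), Trim56, which acts in cytosolic nucleic acid sensing, 5.85 ± 1.01 and 5.03 ± 0.449 TPM, and Trim14, an adaptor of the same pathway without a RING finger, 6.17 ± 1.49 and 5.39 ± 1.65 TPM. A list of 12 interferon-inducible members took in most of the chromosome 7 cluster as well. Of these 10 were tested, 4 lay higher and 6 lower, and the median difference was −0.23. Only Trim30b of the cluster was lower without overlap (9.02% of all tested genes). The listed members outside the cluster were Trim14, Trim25, Trim26 and Trim56, at 0.18, 0.09, 0.19 and 0.18, and Trim21, at −0.21. In the list of 30 interferon-stimulated genes outside the family 7 lay higher and 23 lower (median −0.11), with 4 lower without overlap (9.02% of all tested genes) and 0 called. Among the members of smallest p were Ifit3 (72.7 ± 4.48 and 91.6 ± 10.1 TPM with rMANF and vehicle) and Zbp1 (63.9 ± 14 and 92.7 ± 17.9 TPM). Macrophage and monocyte markers lay in the same direction: 16 of 16 were lower, 9 without overlap (42.7% and 9.02% of all tested genes), and their sum was 2017 to 2749 TPM with rMANF and 3452 to 3932 TPM with vehicle, with no member at 0. T and NK cell markers summed to 32.2 to 58.3 TPM with rMANF and 61.2 to 139 TPM with vehicle, 13 of 14 lower and none at 0. The part of these cells in the TRIM values was not tested.

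Genes of the RNA and DNA sensing pathway, on which several PRY-SPRY members act, were spread about zero. Of 21 tested genes 10 lay higher and 11 lower, 3 and 1 of them without overlap (18.9% and 9.02% of all tested genes), with a median difference of −0.02 and 0 called. Zyx, which encodes zyxin, averaged 77.6 ± 4.36 TPM with rMANF and 65.6 ± 1.59 TPM with vehicle. The adaptor gene Mavs averaged 21.2 ± 1.88 and 17.7 ± 1.22 TPM, and the kinase gene Ikbke 7.36 ± 1.08 and 9.25 ± 0.662 TPM (limma, adjusted p = 0.162, 0.228 and 0.243). With the GC trend removed the differences of Zyx, Mavs and Ikbke were −0.05, 0.20 and −0.38, against 0.24, 0.25 and −0.30 before.

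The nuclear corepressors of the PHD-bromodomain class were abundant, apart from Trim66, and overlapped between the groups in the deposited TPM. Trim28, the corepressor (KAP1) that KRAB zinc finger proteins recruit to silence transposable elements, measured 120.4, 122 and 125 TPM in the rMANF libraries, against 124, 99.9 and 106 TPM in the vehicle libraries. Vehicle replicate 1 lay within the rMANF range, and the difference of 0.16 ± 0.09 (limma, adjusted p = 0.387) was −0.04 with the GC trend removed. Trim33, which restrains SMAD signalling, averaged 19.4 ± 2.44 TPM with rMANF and 17.6 ± 3.07 TPM with vehicle. Its difference was 0.14, and 0.24 with the GC trend removed, where its groups no longer overlapped. Trim24, a chromatin reader that ubiquitinates p53, averaged 15.0 ± 1.30 and 15.1 ± 4.34 TPM, and Trim66 0.523 ± 0.0208 and 0.567 ± 0.0782 TPM. Among 22 genes of proteins that work with TRIM28 14 lay higher and 8 lower, 5 and 1 without overlap (18.9% and 9.02% of all tested genes), with a median difference of 0.02 and 0 called. The maintenance DNA methyltransferase gene Dnmt1 averaged 41.0 ± 2.55 TPM with rMANF and 29.2 ± 2.48 TPM with vehicle (difference 0.48; limma, adjusted p = 0.0893). The remodeller genes Chd3 and Chd4 averaged 14.1 ± 1.04 and 10.1 ± 1.72 TPM, and 72.2 ± 1.06 and 60.0 ± 4.52 TPM, with rMANF given before vehicle.

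The 4 members with NHL repeats, and those with rarer domains, differed little in the deposited TPM. Trim3, an NHL member abundant in brain, averaged 16.8 ± 0.718 TPM with rMANF and 16.6 ± 3.44 TPM with vehicle. Trim32, which is mutated in a human limb-girdle muscular dystrophy, averaged 9.88 ± 1.30 and 9.62 ± 1.24 TPM. Trim71, a stem cell gene repressed by let-7 microRNAs, averaged 2.88 ± 0.302 and 2.42 ± 0.601 TPM, and Trim2, a ligase of neurofilament light chain, 2.11 ± 0.0989 and 2.02 ± 0.419 TPM. Their differences lay between 0.03 and 0.20 (limma, adjusted p = 0.591 to 0.931). Trim37, of the MATH class and mutated in mulibrey nanism in humans, differed by 0.18. Trim23, which carries an ARF GTPase domain, differed by 0.09, and the membrane-anchored Trim13 and Trim59 by 0.13 and −0.16. With the GC trend removed Trim23 and Trim13 differed by 0.25 and 0.22, higher with rMANF without overlap, and Trim59 by −0.04. Trim16, without a RING finger, differed by 0.19, Trim26 by 0.19 and Trim11 by 0.00, each overlapping between groups.

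The muscle members split between a well-expressed gene and genes close to 0. Trim54 (MuRF3) measured 13.3, 17.3 and 10.6 TPM in the rMANF libraries, against 8.66, 14.8 and 18.9 TPM in the vehicle libraries, with overlapping groups and a difference of 0.00 ± 0.27. Its order over the libraries was not that of the skeletal muscle markers, which were highest in vehicle replicate 2. Gm15469, which overlaps Trim54 on the opposite strand and shares 21.1% of its 31-base words, measured 1.91 to 3.06 TPM with rMANF and 0.589 to 3.81 TPM with vehicle. Trim63 (MuRF1), a ligase of muscle atrophy, measured 0.245, 0 and 0 TPM, against 0.295, 1.49 and 0.0477 TPM. Trim72, a membrane repair protein of striated muscle, measured 0.142, 0 and 0 TPM, against 0.379, 2.02 and 0.0920 TPM. In both genes the highest library was vehicle replicate 2, where the 20 skeletal muscle markers summed to 1569.8 TPM, against 148 to 254 TPM in the other 5 libraries; the part of muscle RNA in these values was not tested. Trim55 (MuRF2) was listed at 0 in all libraries but vehicle replicate 1 (0.0679 TPM).

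The filter at a mean of 1 TPM left 27 members untested, 17 of them listed at 0 in some library. Just above it lay Trim46, Trim30b and Trim7 at means of 1.72, 1.42 and 1.26 TPM, and just below it Trim5, Trim30c and Trim29 at 0.984, 0.978 and 0.916 TPM. Groups did not overlap for 2 untested members. Without the filter, 7 of 61 members, Trim47 left out, lay higher in this way and 4 lower, against 12.0% and 7.01% of all rows. Those shares take in the tested rows, and the share of untested rows alone was not computed. Trim9, a ligase of neurons, measured 0.0926, 0.111 and 0.225 TPM with rMANF and was listed at 0 in each vehicle library. Trim36, a microtubule-associated ligase gene, measured 0.731, 0.511 and 0.425 TPM with rMANF, against 1.01, 0.974 and 0.853 TPM with vehicle. The near-identical genes Trim43a, Trim43b and Trim43c, whose transcripts share 63.7%, 64.6% and 71.8% of their 31-base words with other genes, stayed under 1 TPM in every library.

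TRIM genes that carry other symbols, and the enzymes that hand ubiquitin to TRIM ligases, also held no called gene. Of 12 such TRIM genes and close relatives 9 had rows and 3 were tested. Pml, the organiser of nuclear bodies, averaged 12.2 ± 0.709 TPM with rMANF and 11.9 ± 1.01 TPM with vehicle, Mid2, a microtubule-associated member, 4.72 ± 0.746 and 3.59 ± 1.55 TPM, and Mefv, which encodes pyrin, 2.63 ± 0.731 and 3.78 ± 0.272 TPM. Of 32 genes of ubiquitin-conjugating (E2) enzymes 14 lay higher and 18 lower, 7 and 4 without overlap (18.9% and 9.02% of all tested genes), with a median difference of −0.06. Ube2g2, of endoplasmic reticulum-associated degradation, averaged 77.1 ± 1.78 TPM with rMANF and 61.6 ± 3.94 TPM with vehicle. Ube2o measured 18.7 to 21.1 TPM with rMANF and 14.2 to 16.9 TPM with vehicle. Cdc34, which works with cullin ligases, averaged 161 ± 7.71 and 131 ± 11.7 TPM in rMANF and vehicle libraries (all 3 genes by limma, adjusted p = 0.113, 0.129 and 0.145). With the GC trend removed the differences of Ube2g2, Ube2o and Cdc34 were 0.29, 0.20 and 0.10, against 0.32, 0.36 and 0.29 before.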

How the data were processed

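The authors deposited log2 TPM per gene and library in 1 table of 23494 rows. QIAzol was used for RNA and Nextera XT for libraries, per the labels' protocols. The submitters' processing notes name Salmon 0.14.1, HTSeq 0.11.0, fastp, cutadapt and build mm10, without roles; an annotation or filter is not given in the sources used. Values were raised to base 2, and −9 was read as 0 TPM. No read counts are kept, so no counting interval was computed.

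Differences are rMANF minus vehicle on log2(TPM + 1), a scale on which low genes appear to differ less than they do. The 12865 genes averaging 1 TPM or more were fitted with limma 3.58.1 in R 4.3.3 (no covariates, mean variance trend, two-sided), with Benjamini-Hochberg adjustment over all of them and a threshold of 0.05. The procedure was tested on simulated data of the rMANF and vehicle comparison with 12865 genes: it recovered 70.7% of genes given a log2 change of 1 and 94.1% of those given 2. Changes as small as those of the TRIM members were not simulated, and neither were trends with GC content, so recovery at those sizes is unknown.

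GC content (mean over protein-coding transcripts, GENCODE M21) was found for 99.7% of tested genes. Its trend was fitted per library by loess, span 0.5. Shared words are 31-base sequences of protein-coding transcripts found in transcripts of any other gene. The promoter sequences come from RefSeq. Alternatives were 2 pseudocounts, 2 filters, 3 scalings, no variance trend, library weights, a block on the replicate number, GC trend removal, and libraries left out.

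Members and lists were chosen with earlier results of these data known. Genes named are Trim47 and its 4 neighbouring rows on each side, members whose groups do not overlap, the 10 highest members, the muscle members, the 3 on each side of the filter, and the 3 genes of smallest p in each other list. Other members are given to describe their class. Some items that this rule names are not reported here.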

Additional observations from a re-analysis of the deposited data

How the results depend on the processing

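With the replicate number as a block 0 members passed at 0.05, and over all genes 3 passed at 0.05 and 113 at 0.10, against 0 and 351 without it. The numbers do not pair the samples: same-numbered libraries' deviations correlated at −0.07, 0.03 and 0.05. The larger changes of a count among the 34 members are given below, and other alternatives brought smaller ones. Members higher without overlap numbered 4 of the 26 left by a filter at 5 TPM (21.8% of all genes in that fit). They numbered 4 when rescaled without mitochondrial and haemoglobin genes (17.1% of all genes). They numbered 7 with the GC trend removed (17.5% of all tested genes). Limma's unadjusted p was under 0.05 for 6 under median-of-ratios scaling or quantile normalization, and for 3 with the block. At an adjusted p of 0.05, 1 member (Trim35) passed with library weights (737 genes in all) and 0 to 0 without each library. At 0.10 there were 0 (351 genes in all), but 2 with a filter at 5 TPM (641), 1 under median-of-ratios scaling (478) and 4 with library weights (1859). Without each library there were 0 to 2. These were 2 without vehicle replicate 1 (971 genes in all) and 1 when vehicle replicate 3 was left out (538). Unadjusted p under 0.05 held for 4, but for 9 with library weights, 2 with GC trend removal and the block together, and 3 to 10 without each library (10 without vehicle replicate 1). Members higher without overlap numbered 6 to 14 without each library (14 without vehicle replicate 1, against 32.1% of all tested genes). They numbered 16 with vehicle replicates 1 and 2 both left out, against 37.4% of all tested genes. Members lower without overlap numbered 1 of 26 with a filter at 5 TPM (8.52% of all genes in that fit) and 3 to 7 without each library. They were 5 without rMANF replicate 2 (14.9% of all tested genes) and 7 without vehicle replicate 3 (13.7%). With vehicle replicates 1 and 2 both left out they were 5 (22.4%). Trim44 and Trim30b lie under the filter at 5 TPM, which accounts for that count of 1. For the others the cause was not tested.

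Trim47 stood at 0.53 with library weights, 0.31 with the GC trend removed, with or without the block, and 0.49 without vehicle replicates 1 and 2 together. Signs turned for members near 0. With the GC trend removed, alone and with the block, Trim28 was −0.04, Trim3 −0.14, Unc13d −0.08 and Wbp2 −0.04. Trim3 was −0.01 under median-of-ratios scaling, −0.02 under quantile normalization and −0.06 to 0.18 without each library. Trim11 was 0.04 with library weights, 0.05 without vehicle replicates 1 and 2 together and −0.05 to 0.06 without each library. Trim54 was 0.00 at a pseudocount of 0.1 TPM and −0.29 to 0.23 without each library. Trim7 was 0.03 under quantile normalization, 0.20 with library weights, 0.28 without vehicle replicates 1 and 2 together and −0.21 to 0.12 without each library. Wbp2 was −0.05 without vehicle replicates 1 and 2 together. No scaling moved the median of all genes by 0.1.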
